A study of Mus musculus with 11 samples.

Results

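The comparison described here sets 3 infarcted left ventricles against 3 uninjured left ventricles from mice whose myeloid cells lack Vegfc, and covers all 25006 genes of the deposited count tables, of which 14779 had enough counts to be tested. The series held 11 left ventricular RNA-seq libraries, 1 per mouse, and the 6 analysed here came from Vegfc fl/fl;LysMCre animals. Below they are called Vegfc-deficient hearts, a name that refers to their myeloid cells only. LysMCre expresses Cre recombinase from the Lyz2 locus, so that floxed Vegfc is deleted in macrophages, monocytes and neutrophils, while Vegfc made by other cells of the heart is left intact. The MI group received a permanent ligation of the left anterior descending coronary artery, and infarcted tissue was taken 9 days later. The naive group had no infarct, and left ventricle of like mass and position was taken. The other 5 libraries were the control hearts, 2 naive and 3 MI, whose genotype is given as Vegfc fl/fl in 1 field of the sample labels and as LysMCre in another. In all values below the naive hearts are given in the order M34, M150 and M149, and the MI hearts in the order M35, M913 and M900, which are mouse numbers that do not pair the groups.

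After a coronary artery is closed, cardiomyocytes of the supplied wall die and are cleared by neutrophils and macrophages. Resident fibroblasts then proliferate, take on a contractile and secretory state and lay down a collagen scar that replaces the lost muscle, while vessels regrow at its margin. Cardiac muscle is among the tissues richest in mitochondria and draws most of its ATP from fatty acids, so that transcripts of contraction and of oxidative metabolism make up much of ventricular RNA. VEGF-C, the ligand of VEGFR-3, is the main growth factor of lymphatic vessels, which drain fluid and immune cells from the injured heart.

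The libraries held 10824989 to 20834194 counts in genes. The first principal component of log2 CPM held 77.0% of the variance of the 6 libraries and separated the groups, with the naive hearts at −74.5, −90.9 and −69.2 and the MI hearts at 50.5, 79.6 and 104.4. Features of the libraries touch many results. The naive heart M149 stood apart on the second component, which held 9.54% of the variance, and had high levels of some macrophage genes. Lyz2, the lysozyme of myeloid cells whose locus carries the Cre, was at 245, 72.5 and 4565 CPM (counts scaled to library size, with TMM factors) in the naive and 1392, 12.4 and 203 CPM in the MI hearts. The control hearts had 2282 and 2121 CPM when naive and 4573, 5380 and 4538 CPM after MI. The naive heart M149 thus lay above both naive control hearts, at the level of the MI control hearts. The other Vegfc-deficient hearts lay below all control hearts. Whether the Cre in this locus had a part in these levels was not tested. The log2 fold change of Lyz2 in the Vegfc-deficient hearts, −1.60 (SE 1.49, edgeR adjusted p = 0.375), became 1.75 without M149. Xist, which is transcribed from the inactive X chromosome, lay at 1.76 to 11.8 CPM in the naive hearts and at 310.8 to 403.4 CPM in the MI hearts, and the sum of 4 Y-linked genes (Ddx3y, Eif2s3y, Kdm5d and Uty) was 162 to 195 CPM in the naive hearts and at most 1.84 CPM in the MI hearts. Effects that go with this split and effects of MI therefore cannot be told apart in these 6 libraries, for autosomal genes as well. Genes of the X and Y chromosomes were kept out of the ranked genes below, which does not remove this limit for the autosomal genes. Vegfc itself was at 30.6, 34.5 and 27.5 CPM in the naive and 29.4, 22.4 and 25.3 CPM in the MI hearts, and the groups overlapped (log2 fold change −0.26, SE 0.26, edgeR adjusted p = 0.4). Control hearts stood at 34.7 and 25.1 CPM when naive and at 21.9, 45.5 and 25.8 CPM after MI. Vegfc RNA of the whole tissue in the Vegfc-deficient hearts thus lay within the range of the control hearts.

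Of 14779 genes with enough counts to be tested, 8520 (57.6%) passed an adjusted p of 0.05 between MI and naive hearts in edgeR's quasi-likelihood test. After MI 4432 genes (30.0%) were higher and 4088 (27.7%) lower, and among these 2457 (16.6%) were at least 2-fold higher and 2508 (17.0%) at least 2-fold lower. All 3 MI libraries lay above all 3 naive libraries for 4966 genes (33.6%) and below them for 4536 genes (30.7%). These shares are the background against which the counts for gene groups below are read. The near balance of rises and falls holds for TMM scaling, with 52.0% of the calls higher after MI. With library size alone 9880 genes passed and 75.5% of them were higher, and the median log2 fold change of all genes then moved up by 0.50 from 0.097. The genes higher with library size alone numbered 7457 of the 14779 tested, and group counts given below for that scaling are read against this number. In the fit of the 6 libraries alone 4258 genes were higher. No cell numbers were measured, and in such tissue libraries fewer cells of a type and less RNA per cell cannot be told apart.

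**Figure D1:**
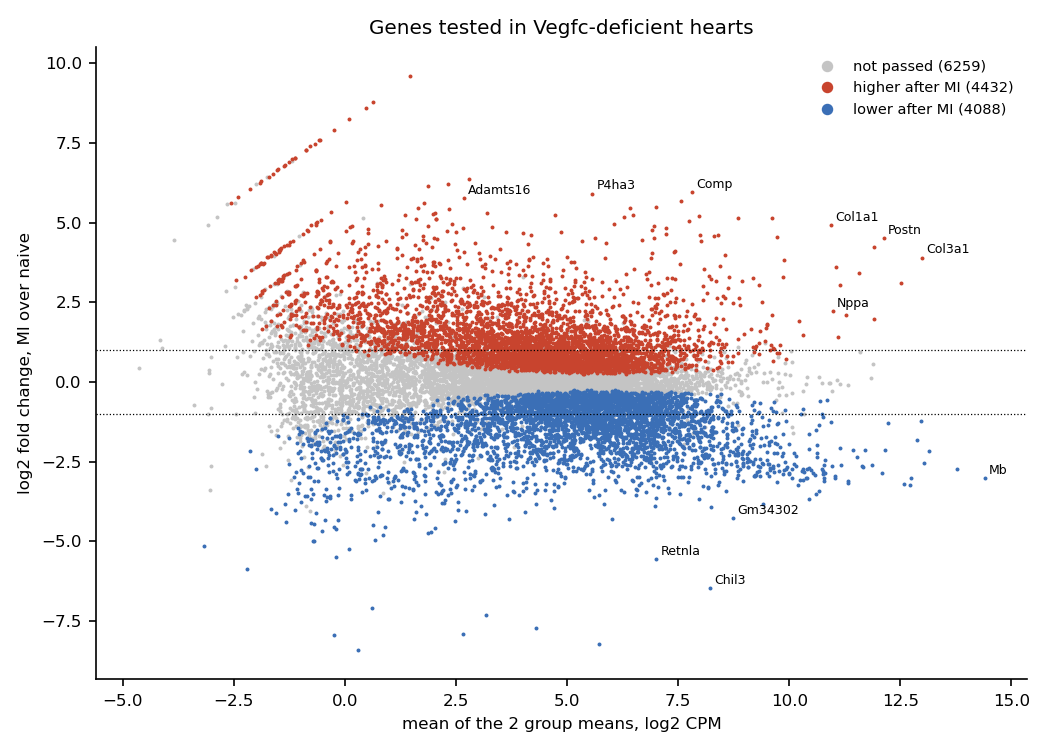
Each point is 1 of the 14779 genes tested; the horizontal axis is the log2 of the mean of the naive and MI group means in CPM and the vertical axis the log2 fold change from naive to MI (n = 3 mice each), with dotted lines at a 2-fold change. Colours mark the 4432 genes higher, the 4088 lower and the 6259 not past an adjusted p of 0.05; diagonal streaks at the upper left are genes with few or no counts in the naive hearts, and the lowest points include 4 Y-linked genes.

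The 25 autosomal protein-coding genes with the largest rises were led by secreted proteins of the scar. The ranking took only genes whose groups did not overlap, so that all MI hearts lie above all naive hearts for each of them by rule. Comp (ENSMUSG00000031849, chromosome 8, 70373558 to 70382066 in mm10), a pentameric protein that binds collagen fibrils in cartilage and tendon, was at 11.4, 5.81 and 4.22 CPM in the naive hearts and 339, 542 and 449.6 CPM in the MI hearts. All MI hearts were far above the naive ones, a rise of 61.5-fold (log2 fold change 5.94, SE 0.40, edgeR adjusted p = 1.99e-05). P4ha3 (ENSMUSG00000051048), a subunit of the prolyl hydroxylase that stabilises the collagen triple helix, went from 2.85, 1.45 and 0.196 CPM to 32.7, 123 and 125 CPM, with the MI heart M35 lower than the other MI hearts but still above all naive hearts (log2 fold change 5.91, SE 0.72, edgeR adjusted p = 1.19e-04). Cthrc1, secreted by scar fibroblasts, rose from 24.7, 10.2 and 3.92 CPM to 274, 614 and 568 CPM (log2 fold change 5.22, SE 0.62). Eln encodes elastin and went from 65.1, 42.2 and 21.0 CPM to 1175, 1722 and 1651 CPM, a 35.4-fold rise (SE 0.62 on the log2 scale). Sfrp2, a secreted Wnt-binding protein, went from 37.1, 27.8 and 11.1 CPM to 730.2, 887 and 1066 CPM (log2 fold change 5.14, SE 0.43). Angptl7, a secreted angiopoietin-like protein, stood at 13.8, 14.6 and 8.82 CPM and then 611, 352 and 277 CPM (log2 fold change 5.06, SE 0.36). Fmod, a small proteoglycan that binds collagen fibrils, went from 13.9, 11.5 and 4.80 CPM to 212, 277 and 377 CPM (log2 fold change 4.84, SE 0.49). Other genes in this group rested on few naive counts, among them Adamts16 at 0.407, 0.121 and 0.0981 CPM and Scg2 at 0.488, 0.484 and 0 CPM in the naive hearts against 7.99, 7.16 and 22.5 CPM and 13.5, 9.57 and 8.09 CPM in the MI hearts, and their fitted folds depend on the prior count. The SD of log2 CPM over the MI hearts was largest in this group for Cemip, a protein that takes part in the breakdown of hyaluronan (2.21, from 5.64, 78.4 and 84.4 CPM). Cilp, a matrix protein first found in cartilage, was at 582, 139 and 147 CPM against 10.2, 14.6 and 10.3 CPM in the naive hearts, and its log2 fold change of 4.63 fell to 3.62 without M35. Acan, the large proteoglycan of cartilage, was at 5.58, 14.9 and 72.2 CPM against 1.55, 1.57 and 0.490 CPM (log2 fold change 4.68), and the estimate was 3.08 without M900.

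The 25 largest falls included macrophage, erythroid and cardiomyocyte genes. Chil3 (ENSMUSG00000040809, chromosome 3, 106147554 to 106167564), a chitinase-like protein of alternatively activated macrophages, had the largest fall, from 54.2, 26.0 and 1679 CPM to 3.82, 3.02 and 13.1 CPM (log2 fold change −6.45, SE 1.68, edgeR adjusted p = 0.00782). M149 set most of its size: without that library the log2 fold change was −2.59. In the control hearts Chil3 was at 601 and 580 CPM when naive and at 2.87, 1.51 and 16.9 CPM after MI (log2 fold change −6.37). The naive hearts M34 and M150 thus lay below both naive control hearts and M149 above them. Retnla, another product of such macrophages, did not rest on M149, at 215, 186 and 353 CPM in the naive and 10.5, 2.24 and 3.44 CPM in the MI hearts (log2 fold change −5.56, SE 0.84, edgeR adjusted p = 3.74e-04). The eosinophil attractant Ccl11 fell from 25.9, 24.4 and 33.0 CPM to 3.41, 1.78 and 1.97 CPM (log2 fold change −3.56, SE 0.43). Rpl3l, a ribosomal protein of striated muscle, fell from 574, 669.8 and 463 CPM to 63.2, 36.4 and 13.7 CPM (log2 fold change −3.92, SE 0.77). Hfe2, which encodes the iron regulator hemojuvelin, fell from 421, 568 and 398 CPM to 60.9, 33.9 and 13.3 CPM (log2 fold change −3.68, SE 0.66). Tuba4a, an alpha-tubulin abundant in heart, fell from 1131, 1761 and 943 CPM to 160.3, 80.5 and 32.3 CPM (log2 fold change −3.81, SE 0.64). Adra1b, the alpha-1B adrenergic receptor, went from 23.7, 26.1 and 19.0 CPM to 3.64, 1.74 and 0.671 CPM (log2 fold change −3.54). Thrsp, a regulator of lipid synthesis, went from 188, 143 and 97.8 CPM to 14.9, 16.8 and 7.46 CPM (log2 fold change −3.46). In Rpl3l, Hfe2, Tuba4a and Adra1b the MI heart M35 was the highest of the 3 and M900 the lowest. Hba-a2, an adult alpha-globin, went from 119, 143 and 58.8 CPM to 0.118, 10.3 and 11.8 CPM (log2 fold change −3.83, SE 1.39, edgeR adjusted p = 0.0364), and its call was lost without any 1 of the other libraries than M149. Reads of Hba-a2 can be shared with its near-identical neighbour copy, so its level is uncertain.

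**Figure D2:**
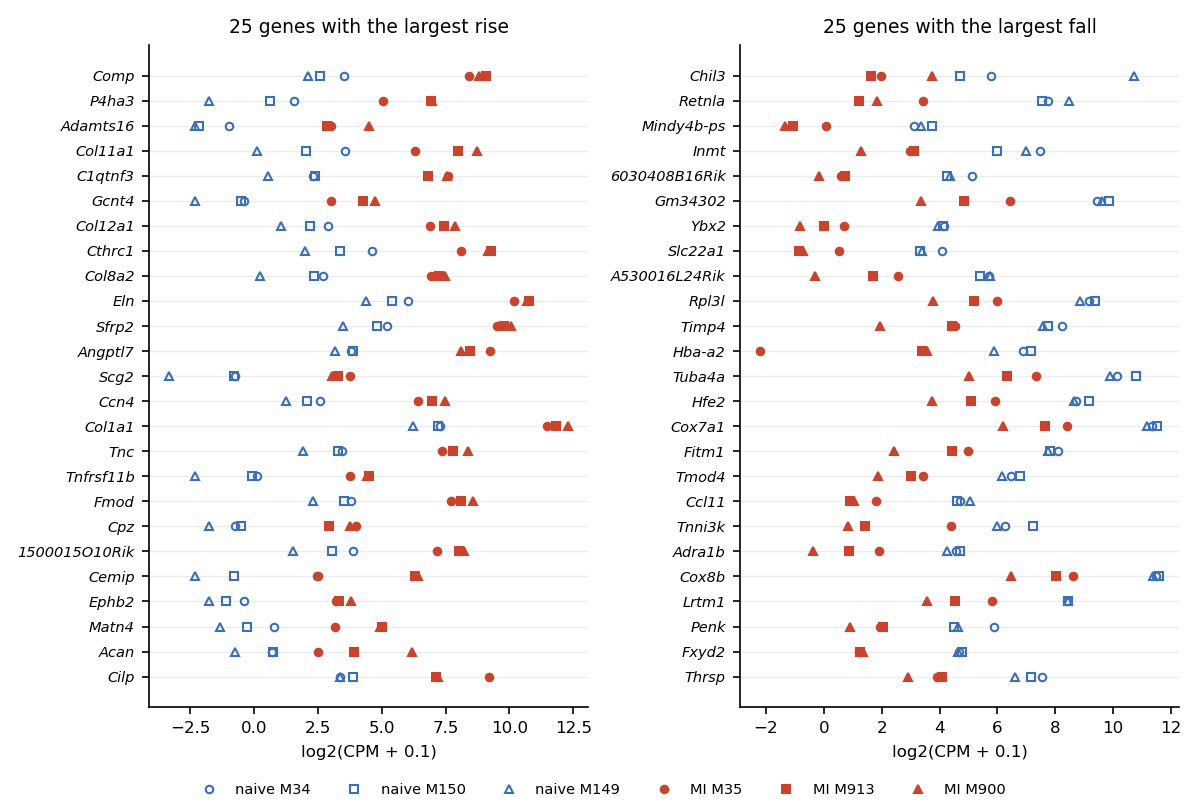
Levels of the 25 most risen and 25 most fallen ranked genes in each of the 6 libraries, 1 gene per row, as log2 of CPM plus 0.1, with 1 marker per mouse coloured by group. The groups do not overlap for any gene, which the ranking rule required; Chil3 shows the naive heart M149 far above the other naive hearts.

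Promoter windows are shown for 4 genes that head the rankings by fold or by level, as examples of the sequence just upstream of genes at both ends of the response. Each is the 250 bases before the RefSeq transcription start (GRCm38.p6, 5′ to 3′ on the gene's strand), in lower case with capitals marking a match, on either strand, to the TATA box (TATAAA), the CCAAT box, the GC box (GGGCGG) or the AP-1 site (TGANTCA). P4ha3 and Chil3 rose and fell most among genes with 1 window, and Nppa and Cox8b, described below, had the largest rise and fall in CPM per kilobase among such genes.
P4ha3, chr7:100285270-100285519, plus strand: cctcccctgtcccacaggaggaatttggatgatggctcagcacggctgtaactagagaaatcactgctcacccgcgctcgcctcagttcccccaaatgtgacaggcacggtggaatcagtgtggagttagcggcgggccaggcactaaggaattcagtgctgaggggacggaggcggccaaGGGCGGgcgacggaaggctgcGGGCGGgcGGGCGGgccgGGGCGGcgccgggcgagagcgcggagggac
Chil3, chr3:106167565-106167814, minus strand: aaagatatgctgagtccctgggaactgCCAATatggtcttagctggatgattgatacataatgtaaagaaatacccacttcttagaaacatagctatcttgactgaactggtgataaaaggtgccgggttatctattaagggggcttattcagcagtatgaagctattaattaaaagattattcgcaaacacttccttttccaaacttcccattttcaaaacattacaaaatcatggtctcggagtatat
Nppa, chr4:148000472-148000721, plus strand: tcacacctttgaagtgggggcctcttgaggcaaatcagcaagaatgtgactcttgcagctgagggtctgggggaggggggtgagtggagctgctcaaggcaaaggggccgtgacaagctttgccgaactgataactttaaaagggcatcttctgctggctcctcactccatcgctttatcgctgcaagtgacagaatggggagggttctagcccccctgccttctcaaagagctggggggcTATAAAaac
Cox8b, chr7:140900447-140900696, minus strand: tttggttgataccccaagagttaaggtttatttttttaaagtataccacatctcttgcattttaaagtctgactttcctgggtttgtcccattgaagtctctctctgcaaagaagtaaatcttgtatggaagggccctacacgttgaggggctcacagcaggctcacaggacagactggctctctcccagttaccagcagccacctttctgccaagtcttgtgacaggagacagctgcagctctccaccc
The P4ha3 window held 4 GC box matches, the Chil3 window 1 CCAAT box match and the Nppa window 1 TATA box match, while the Cox8b window held none of the 4 motifs. The GC box occurred in 60.7% of the windows of 11581 tested genes that had one, in 61.0% of those at least 2-fold higher after MI and in 55.2% of those at least 2-fold lower. The TATA box occurred in 8.59%, 9.93% and 9.74% of these windows, the CCAAT box in 39.7%, 37.5% and 41.6%, and the AP-1 site in 5.9%, 7.21% and 6.01%. These matches describe letters in the windows and not sites of binding.

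Collagen genes rose as a whole set. All 19 fibrillar and network collagens tested passed the test upward, 18 of them at least 2-fold, with a median log2 fold change of 3.64 against 0.097 over all genes, and their summed level went from 3147, 3168 and 2285 CPM to 31266, 31963 and 40586 CPM. Col1a1 (ENSMUSG00000001506, chromosome 11, 94936224 to 94953042), a chain of the main scar collagen, was at 157, 148.5 and 73.8 CPM in the naive and 2864, 3587 and 5047 CPM in the MI hearts, a 30.3-fold rise (log2 fold change 4.92, SE 0.41, edgeR adjusted p = 3.42e-05). Col3a1 (ENSMUSG00000026043, chromosome 1, 45311538 to 45349706), its partner in young scar, had more RNA at baseline and went from 1079, 1218 and 744 CPM to 15224, 13481 and 16815 CPM (log2 fold change 3.90, SE 0.35, edgeR adjusted p = 3.97e-05). The largest rises among collagens were those of the minor fibril chain Col11a1 (5.48), the fibril-associated Col12a1 (5.23) and the network-forming Col8a2 (5.17), against 1.02 for the basement membrane chain Col4a1 (all log2 fold changes). Collagen-modifying enzymes moved the same way, with all 17 tested higher and a median of 2.16. Lox, the lysyl oxidase that crosslinks collagen and elastin, went from 40.9, 23.0 and 12.5 CPM to 401, 718 and 715 CPM (log2 fold change 4.58, SE 0.47).

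Markers of activated fibroblasts rose in full, 16 of 16 with a median log2 fold change of 3.58 and a summed level of 1268, 1154 and 1202 CPM in the naive and 12503, 18413 and 21332 CPM in the MI hearts. Postn (ENSMUSG00000027750, chromosome 3, 54361109 to 54391037), periostin, a matrix protein made by injury-activated fibroblasts, went from 514, 395 and 205 CPM to 6711, 8643 and 10307 CPM (log2 fold change 4.53, SE 0.41, edgeR adjusted p = 4.17e-05). Tnc, tenascin-C of wound matrix, went from 10.9, 9.68 and 3.63 CPM to 165, 222 and 330.0 CPM (log2 fold change 4.89). Acta2, the smooth muscle actin of myofibroblasts and vessel walls, went from 85.1, 202 and 101 CPM to 286, 907 and 983 CPM, with M35 again the lowest MI heart (log2 fold change 2.49, SE 0.56). Markers of resting cardiac fibroblasts changed less, with 7 of 12 higher, 1 lower and a median of 0.85. Pdgfra, the receptor that marks fibroblasts of the heart, went from 96.6, 94.5 and 78.0 CPM to 184, 128 and 137 CPM (log2 fold change 0.74, call lost without M149 or M35), while Dcn, the abundant proteoglycan decorin, did not pass (0.13, edgeR adjusted p = 0.698).

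Among 18 genes of cartilage- and bone-like matrix, 16 rose and 2 did not pass, with a median of 3.08. Sparc, a collagen-binding protein of bone and wounds, went from 1336, 1321 and 999 CPM to 8797, 10506 and 12393 CPM, 8.67-fold (SE 0.31 on the log2 scale). Matn3, a matrilin of growth-plate cartilage, had 0 counts in every naive heart and a mean of 5.51 CPM in the MI hearts, which is at least 18.3-fold higher when each naive library is set at 3 counts. Such floors cover counting error only. Spp1, osteopontin of macrophages and bone, had a naive heart, M149, above the MI heart M35, at 54.0, 26.9 and 332 CPM and 144, 1589 and 1663 CPM, and its log2 fold change of 3.04 was 4.80 without M149 and its call was lost without M34, M150, M913 or M900.

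Matrix proteases and their inhibitors gave 11 higher, 1 lower and 5 not passed of 17. Mmp14, the membrane-bound collagenase, went from 19.1, 11.5 and 14.2 CPM to 136, 206 and 327 CPM (log2 fold change 3.89, SE 0.37). Timp1, an X-linked inhibitor of these proteases, went from 22.1, 21.7 and 13.2 CPM to 239, 349 and 369.6 CPM (log2 fold change 4.07). Timp4, the inhibitor typical of heart muscle, went the other way, from 303, 213 and 191 CPM to 22.9, 21.2 and 3.77 CPM (log2 fold change −3.89, SE 0.95, edgeR adjusted p = 0.00578). Of 18 genes of TGF-beta and BMP signaling 16 rose and none fell. Tgfb3, a fibrogenic ligand, went from 36.4, 32.8 and 23.3 CPM to 269, 282 and 339.7 CPM (log2 fold change 3.27, SE 0.23), and Ltbp2, a latent TGF-beta binding protein of elastic fibres, from 27.1, 20.7 and 11.6 CPM to 329.9, 553 and 577 CPM (log2 fold change 4.62). Wnt genes gave 12 higher and 6 not passed of 18. The 4 largest rises there were secreted proteins of the Sfrp and Dkk families, Sfrp2 above, Dkk3 (4.44), Dkk2 (3.78) and Sfrp1 (3.54, log2 fold changes).

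**Figure D3:**
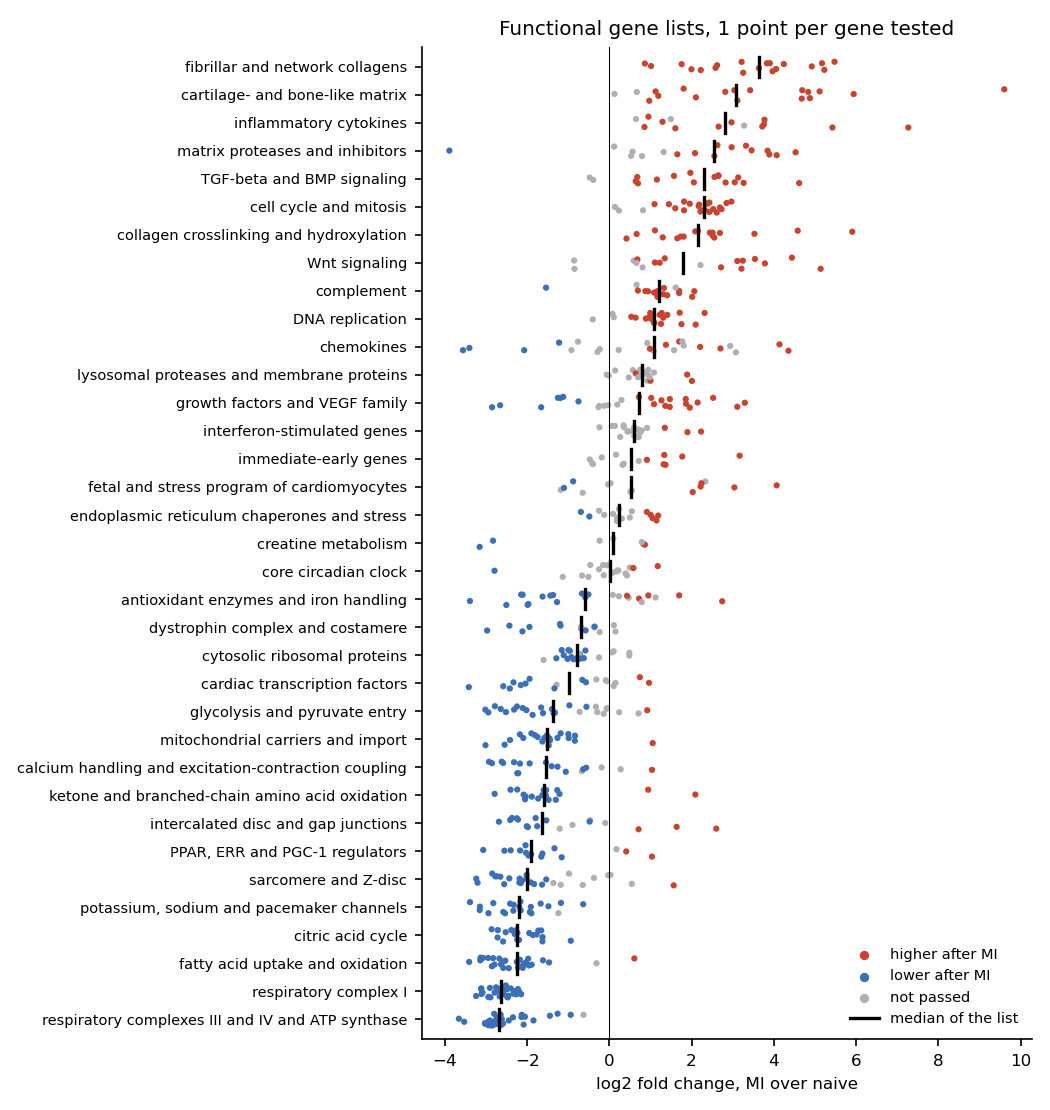
Log2 fold changes from naive to MI for the tested members of 35 functional gene groups, 1 point per gene, with a bar at each group's median. Matrix and cell cycle groups lie to the right of 0 and oxidative metabolism, channels and sarcomere to the left; all 32 complex I genes are below 0.

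Respiratory chain transcripts fell together. All 32 complex I genes tested fell (median −2.63, from −3.24 for Ndufa5 to −2.14 for Ndufv1), as did 33 of 34 genes of complexes III and IV and ATP synthase (median −2.68). The exception was Atp5g2, which codes for the membrane ring subunit also encoded by Atp5g1 and Atp5g3, at 0.977, 1.33 and 1.18 CPM and 0.823, 0.663 and 0.755 CPM (log2 fold change −0.63, SE 0.34, edgeR adjusted p = 0.131), with log2 fold changes of −2.97 for Atp5g1 and −2.79 for Atp5g3. Its count is uncertain, since these genes have near-identical copies that can share reads. Ndufa5, an accessory subunit of complex I, was at 1897, 2589 and 1860.0 CPM in the naive and 359, 197 and 117 CPM in the MI hearts (SE 0.51). Cox7a1 and Cox8b, the muscle isoforms of 2 subunits of cytochrome c oxidase, fell most in this group. Cox7a1 went from 2570.4, 2894 and 2301 CPM to 340.4, 202 and 72.8 CPM (log2 fold change −3.66, SE 0.75, edgeR adjusted p = 0.0022). Cox8b went from 2840.0, 3075 and 2633 CPM to 392, 261 and 88.0 CPM (log2 fold change −3.53, SE 0.72, edgeR adjusted p = 0.00217). Of the isoforms found in most tissues, Cox7a2 had a log2 fold change of −2.73, Cox8a of −1.26 and Cox6a1 of −0.94. The 20 citric acid cycle genes all fell (median −2.24), for example Sdhb, the iron-sulfur subunit of succinate dehydrogenase, with a log2 fold change of −2.86. No mitochondrially encoded transcript had counts in any library, so these values concern nuclear genes.

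Fuel use showed the same direction. Of 30 genes of fatty acid uptake and oxidation 28 fell, 1 rose and 1 did not pass (median −2.24). Ech1, an auxiliary enzyme of beta-oxidation, went from 3556, 3109 and 2292 CPM to 457, 242 and 145 CPM (log2 fold change −3.41, SE 0.49). Fabp3, the fatty acid carrier of heart muscle, went from 2417, 2209.6 and 1859 CPM to 426, 251 and 93.5 CPM (log2 fold change −3.07, SE 0.68). Cpt1b, the muscle form of the enzyme that admits fatty acids to mitochondria, fell by 2.58 on the log2 scale. The form found in liver and many other tissues, Cpt1a, was the gene that rose, from 57.9, 61.4 and 75.0 CPM to 93.2, 101 and 102 CPM (log2 fold change 0.61). Among 15 PPAR, ERR and PGC-1 regulators 12 fell, including Ppargc1a, the coactivator of mitochondrial genes, from 37.8, 47.0 and 38.9 CPM to 13.8, 6.05 and 3.86 CPM (log2 fold change −2.40, SE 0.53). Glycolysis and pyruvate entry gave 17 lower and 1 higher of 26 (median −1.37), with 20 of 21 mitochondrial carriers and 17 of 19 genes of ketone and branched-chain amino acid oxidation also lower. The glucose transporters differed in direction: Slc2a4, the insulin-responsive transporter of muscle, went from 279, 296 and 284 CPM to 103, 48.7 and 20.8 CPM (log2 fold change −2.31), and Slc2a1, the transporter of most other cells, from 14.2, 12.5 and 16.4 CPM to 17.9, 33.8 and 29.7 CPM (log2 fold change 0.92, call lost without M150, M913 or M900). Bcat1, the cytosolic branched-chain aminotransferase, rose by 2.09, against the trend of its group.

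Contractile genes were lower but with more spread among MI hearts. Of 27 sarcomere and Z-disc genes 18 fell, 1 rose and 8 did not pass (median −2.01), and their summed level was 114602, 138859 and 102456 CPM in the naive and 41232, 20482 and 10844 CPM in the MI hearts. Myl2, the ventricular regulatory light chain, went from 22338, 30074 and 20682 CPM to 7071, 2573 and 1332 CPM (log2 fold change −2.74, SE 0.80, edgeR adjusted p = 0.0144), with the call lost without M913. Myh6, the adult myosin heavy chain of the mouse heart, went from 4081, 5663 and 3691 CPM to 1858, 897 and 324 CPM (log2 fold change −2.13, SE 0.70, edgeR adjusted p = 0.0243), and did not pass without M150, M913 or M900 or with library size alone. The cardiac actin Actc1 was at 9302, 16456 and 9232 CPM and 6305, 2154 and 1388 CPM (log2 fold change −1.83, edgeR adjusted p = 0.0369), and its call was lost without M34, M150, M913 or M900. Tpm2, the tropomyosin typical of smooth muscle and slow fibres, was the sarcomere gene that rose (1.57).

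Genes of the fetal and stress program of cardiomyocytes did not move as a set, with 5 higher, 2 lower and 7 not passed of 14. Nppa (ENSMUSG00000041616, chromosome 4, 148000722 to 148002079), the atrial natriuretic peptide that stressed ventricle re-expresses, went from 387, 1240.1 and 513 CPM to 5811, 2176 and 1988 CPM (log2 fold change 2.22, SE 0.58, edgeR adjusted p = 0.00782). Nppb, the B-type peptide, was lower after MI at 591, 388 and 275 CPM against 626, 1002 and 678 CPM (log2 fold change −0.88, edgeR adjusted p = 0.0386), a call lost without M150, M913 or M900 and with library size alone. The fetal myosin Myh7 overlapped between groups, at 304, 495 and 244 CPM and 661, 233 and 172 CPM (log2 fold change 0.03, edgeR adjusted p = 0.967), and so did skeletal actin Acta1 (−0.65, edgeR adjusted p = 0.484). Beside these values, the summed level of 15 cardiomyocyte markers was 94892, 116890 and 82736 CPM in the naive and 35344, 15436 and 8566 CPM in the MI hearts, with 13 of the 15 lower; the part of this sum in the level of each muscle gene was not tested.

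Excitation and coupling genes fell broadly. Of 21 potassium, sodium and pacemaker channel genes 20 fell and 1 did not pass (median −2.19). Kcnj3, a subunit of the channel that acetylcholine opens, went from 74.0, 104 and 70.2 CPM to 14.8, 6.50 and 2.73 CPM (log2 fold change −3.39, SE 0.77), and Scn4b, a beta subunit of sodium channels, from 33.3, 30.9 and 27.1 CPM to 4.05, 5.43 and 0.839 CPM (log2 fold change −3.15, SE 0.58). Calcium handling gave 15 lower and 1 higher of 19 (median −1.54). Atp2a2, the calcium pump of the sarcoplasmic reticulum, went from 5516, 8083 and 5493 CPM to 1856, 745 and 515 CPM (log2 fold change −2.62, SE 0.60, edgeR adjusted p = 0.00404), and its inhibitor Pln fell by 2.85 on the log2 scale. Among 18 cardiac transcription factors 10 fell, 2 rose and 6 did not pass. Nkx2-5, a homeobox factor of cardiomyocytes, went from 51.2, 58.1 and 51.1 CPM to 12.9, 10.1 and 3.94 CPM (log2 fold change −2.58, SE 0.47).

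Level per length ranks the transcripts that filled the libraries. Mb (ENSMUSG00000018893, chromosome 15, 77015487 to 77050670), myoglobin, the oxygen store of muscle, had the largest loss, from 25843 to 3209 CPM per kilobase of exons, and was at 42194, 38426 and 35053 CPM in the naive and 7711, 4813 and 1841 CPM in the MI hearts (log2 fold change −3.01, SE 0.76, edgeR adjusted p = 0.00682). Myl3, the essential light chain, went from 5997 to 637 CPM per kilobase. Nppa gained most, from 825 to 3844 CPM per kilobase. Next to it came Mgp, matrix Gla protein, an inhibitor of calcification (783 to 3371), Sparc (322 to 2789), Apoe, the lipid carrier of macrophages (730.3 to 2886), and Col3a1 (103 to 1546 CPM per kilobase). The 10 largest gains also took in Igfbp7 (554 to 1538), Postn (42.7 to 983), Mfap4 of elastic fibres (36.3 to 849), and Fstl1 (99.1 to 820.3 CPM per kilobase). Ctsd, the lysosomal protease cathepsin D, was among them with 1303 and 1936 CPM per kilobase but did not pass (log2 fold change 0.57, SE 0.54), and at 1.45 it passed without M149.

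Cell cycle genes rose. Of 25 cell cycle and mitosis genes 22 rose and 3 did not pass (median 2.29), as did 18 of 21 DNA replication genes (median 1.09). Mki67, a nuclear protein of cycling cells, went from 18.8, 11.7 and 16.8 CPM to 45.3, 89.1 and 114 CPM (log2 fold change 2.39, SE 0.32), and Top2a, the topoisomerase of mitosis, from 12.4, 7.99 and 11.4 CPM to 31.2, 72.1 and 80.4 CPM (log2 fold change 2.53). The type of the dividing cells is not given by these libraries.

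Inflammatory cytokines were higher while most chemokines did not pass. Of 14 cytokine genes 11 rose and 3 did not pass (median 2.81, or 2.26 with Il12b, which had 0 counts in the naive hearts, set at its lower bound, and 1.32 without M900). Il6, the cytokine of the acute-phase response, was near the detection limit in the naive hearts at 0.326, 0 and 0.294 CPM and reached 5.76, 7.74 and 16.1 CPM after MI. Il33, an alarmin of stromal cells, went from 16.7, 25.8 and 12.3 CPM to 146, 77.8 and 120.3 CPM (log2 fold change 2.66, SE 0.31). Il1b rested on 1 MI heart, at 7.16, 3.39 and 3.82 CPM and 9.81, 12.9 and 175 CPM (log2 fold change 3.76, SE 1.04, edgeR adjusted p = 0.0104), and its log2 fold change was 1.22 without M900. The chemokines gave 7 higher, 4 lower and 12 not passed of 23, with 4 higher without M150 or M900, 10 higher when the 6 libraries were fitted alone and 13 higher with library size alone. Over all 14779 genes tested 30.0% were higher in the main fit, and 7457 genes were higher with library size alone. The largest rise among them, that of the neutrophil attractant Cxcl2, rested on M900, at 0.488, 1.21 and 0.490 CPM and 1.35, 0.911 and 41.2 CPM (log2 fold change 4.36, and 0.66 without M900), and its call was also lost without M34, M150 or M149 and in the fit of the 6 libraries alone. Cxcl5, another attractant of neutrophils, went from 0.651, 0.363 and 0.784 CPM to 9.87, 10.4 and 12.4 CPM (log2 fold change 4.14), while Ccl2, the attractant of monocytes, overlapped between groups at 27.2, 22.3 and 31.0 CPM and 11.5, 34.5 and 48.1 CPM (log2 fold change 0.23, edgeR adjusted p = 0.742). Of 20 interferon-stimulated genes 3 were higher and none lower, while 8 were higher in the fit of the 6 libraries alone and 11 with library size alone. All 3 MI hearts lay above all naive hearts for 8 of the 20, against 33.6% of all genes tested. The counts of 8 and 11 stand near these backgrounds and were not tested as a group. Complement gave 14 higher and 1 lower of 17 (9 higher without M34), with C3 at 422, 409 and 387 CPM and 1054, 632 and 658 CPM (log2 fold change 0.94).

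Macrophage genes moved in both directions. Of 17 macrophage markers 9 rose, 3 fell and 5 did not pass. Their summed level was 2433, 2233 and 7565 CPM in the naive and 4347, 5893 and 5708 CPM in the MI hearts. The sum of M149 exceeded that of every MI heart, and 4565 of its 7565 CPM were Lyz2, the gene whose locus carries the Cre. Lyz2 also made up 1392 of the 4347 CPM of the MI heart M35. The part of Lyz2 in the overlap of the groups was not tested. Ccr2, the receptor that marks monocyte-derived cells, went from 11.2, 8.23 and 5.69 CPM to 73.6, 44.3 and 51.6 CPM (log2 fold change 2.74, SE 0.45). Ms4a7, a membrane protein of mature macrophages, went from 59.9, 77.3 and 79.2 CPM to 262, 550.1 and 673 CPM (log2 fold change 2.78). Markers of resident cardiac macrophages were the ones that fell, with Timd4, a receptor for apoptotic cells, from 31.1, 24.0 and 22.3 CPM to 10.6, 2.32 and 2.73 CPM (log2 fold change −2.32, SE 0.54), Cd163, the hemoglobin scavenger receptor, at −1.74 (call lost without M913) and the folate receptor Folr2 at −1.66. Markers of lipid-associated macrophages gave 6 higher, 3 lower and 8 not passed of 17. The number higher was 10 without M149 and 3 without M34, M150, M913 or M900, so that it depended on most single libraries. Gpnmb, a glycoprotein of lipid-laden macrophages, was at 162, 45.1 and 2799 CPM in the naive and 80.3, 1084 and 847 CPM in the MI hearts, with M149 the highest of all. Lysosomal proteases and membrane proteins gave 4 higher of 19 with a median of 0.80, 2 higher without M34, M150, M913 or M900, 7 higher without M35, and 17 higher with a median of 1.65 without M149, whose summed level of these genes was 26116 CPM against 6701 and 6470 CPM in the other naive hearts. Of 9 lung epithelium markers looked at beside M149, 5 had 0 counts in all naive hearts, and Scgb1a1, the secretoglobin of airways, was at 0.163, 0 and 2.16 CPM in the naive hearts. Of the 3 tested 2 were lower and 1 higher after MI. The sum of all 9, at 647, 823 and 622 CPM in the naive and 114, 58.7 and 27.3 CPM in the MI hearts, was nearly all Hopx, a homeodomain protein that cardiomyocytes also make.

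The counts for other leukocyte markers changed with the fit. Of 11 neutrophil markers 2 were higher and none lower (median 1.06, and −0.53 without M900), and the granule protein gene Ngp was at 0.244, 1.21 and 1.76 CPM and 0.705, 0.580 and 18.3 CPM. Of 11 T cell markers 1 was higher in the fit of all libraries and 5 in the fit of the 6 libraries alone or with library size alone, and all 3 MI hearts lay above all naive hearts for 6. Over all 14779 genes tested 7457 were higher with library size alone, and 33.6% had all 3 MI hearts above all naive hearts. The signaling chain Cd3e of T cells was at no more than 1.76 CPM in any of the 6 hearts. Natural killer cell markers gave 2 higher of 8 (4 in the fit of the 6 libraries alone, 0 without M150, M149 or M900), and B and plasma cell markers 1 of 8 (4 with library size alone). Dendritic cell markers with MHC class II genes gave 3 of 13 (6 in the fit of the 6 libraries alone, 1 without M150). None of these lymphocyte and dendritic cell markers was lower in these fits. Mast cells and eosinophils gave 1 higher and 3 lower of 7 (1 lower without M150, M913 or M900): Kit, a growth factor receptor of mast cells and other progenitors, rose by 1.30, while the mast cell protease Mcpt4 went from 16.6, 20.3 and 10.9 CPM to 4.05, 3.56 and 2.01 CPM (log2 fold change −2.31).

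Vessel genes moved in both directions. Of 15 blood endothelial markers 3 rose, 6 fell and 6 did not pass, with a median of −0.33 that was 0.17 when library size alone set the scale. Without any 1 library 1 or 2 rose and 4 to 6 fell. Fabp4, a fatty acid carrier of capillaries and fat, went from 5458, 6111 and 5304 CPM to 1059, 1036 and 534 CPM (log2 fold change −2.68), and Kdr, the VEGF-A receptor VEGFR-2, from 216, 189 and 151 CPM to 114, 68.2 and 62.5 CPM (log2 fold change −1.19, SE 0.35), with the call of Kdr lost without M913 or M900 and with library size alone. Plvap, which forms the diaphragms of fenestrated and leaky endothelium, went from 8.79, 11.9 and 10.8 CPM to 58.9, 82.4 and 80.0 CPM (log2 fold change 2.82, SE 0.17), and the shared endothelial adhesion molecule Pecam1 did not pass (0.31, edgeR adjusted p = 0.289). Of 9 lymphatic markers 6 rose, 2 fell and 1 did not pass, with 3 higher without M150. Flt4, the VEGF-C receptor VEGFR-3, went from 15.4, 11.1 and 12.6 CPM to 40.4, 20.0 and 34.2 CPM (log2 fold change 1.27, call lost without M150), whereas the hyaluronan receptor Lyve1 went from 73.2, 94.9 and 64.7 CPM to 42.5, 22.4 and 23.3 CPM (log2 fold change −1.40) and the transcription factor Prox1 from 38.9, 41.0 and 34.8 CPM to 24.0, 8.53 and 13.1 CPM (log2 fold change −1.33, call lost without M34, M150, M913 or M900). Lyve1 is also made by resident macrophages and Prox1 also by cardiomyocytes. With library size alone no lymphatic marker fell past the threshold and 7 rose. Among growth factors, Vegfb, a VEGF ligand made by heart muscle, went from 474, 465 and 533 CPM to 92.0, 67.0 and 45.1 CPM (log2 fold change −2.85), Vegfa fell by 1.25 on the log2 scale, and the X-linked Vegfd, another ligand of VEGFR-3, rose from 5.78, 4.36 and 3.04 CPM to 35.3, 38.8 and 40.8 CPM (log2 fold change 3.11). Ccn2, a TGF-beta and Hippo target, went from 179, 209 and 124 CPM to 1272, 2005 and 1746 CPM (log2 fold change 3.29, SE 0.29), and Hgf, a mitogen of epithelium and endothelium, rose by 2.53.

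**Figure D4:**
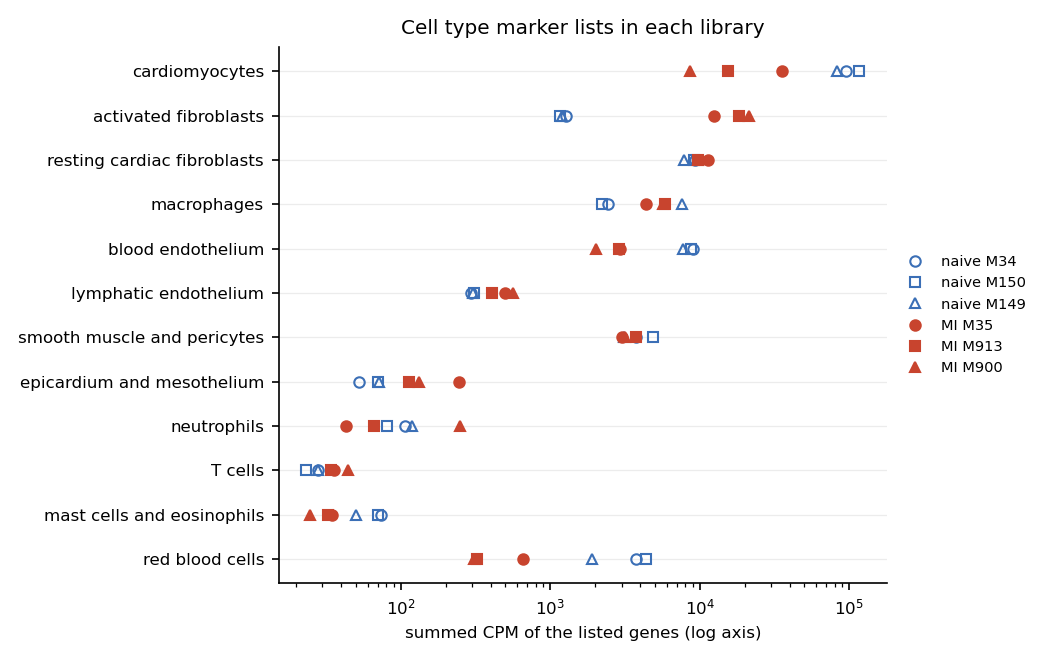
Summed CPM of the listed genes of 12 cell types, with those too low to be tested included, in each of the 6 libraries on a log axis, 1 marker per mouse coloured by group. Cardiomyocyte, blood endothelial and red blood cell sums are lower and activated fibroblast sums higher in all MI hearts. Macrophage sums overlap, with the naive heart M149 at 7565 CPM, of which Lyz2 made up 4565 CPM.

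Red cell and iron genes were lower. All 5 red blood cell genes tested fell (median −3.02), for example Hbb-bs, a beta-globin with a close copy, from 2792, 2993 and 1319 CPM to 421, 244 and 210.0 CPM. The sum of all 8 listed red blood cell genes went from 3774, 4384 and 1895 CPM to 654, 325 and 309 CPM. The blood left in the hearts was not measured. Tfrc, the transferrin receptor, fell by 3.39. Of 23 genes of antioxidant defence and iron handling 13 fell and 5 rose, the latter including the extracellular superoxide dismutase Sod3 (2.75) and the heme oxygenase Hmox1 (1.70). Ribosomal protein genes gave 13 lower and none higher of 20 (median −0.78), and 5 lower and 2 higher with library size alone; many have near-identical pseudogenes, so their levels are uncertain. The core circadian clock gave 2 higher and 1 lower of 18 (median 0.01), with 8 higher when library size alone set the scale and 6 lower without M35. Endoplasmic reticulum chaperones gave 5 higher and 2 lower of 17, with 13 higher by library size alone, and immediate-early genes gave 6 higher and none lower of 14.

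The response was set beside the one of the control hearts, which shares no libraries with it. The split of sex-linked genes was the same there, with Xist at 0.624 to 1.27 CPM and the Y-linked sum at 152 to 153 CPM in the naive and 188 to 365 CPM and at most 0.237 CPM in the MI control hearts. Effects of MI and effects that go with this split therefore cannot be told apart in either genotype, for autosomal genes as well. Of the 4965 genes that passed with at least a 2-fold change, 4925 had the same sign in the control hearts. All 25 ranked risen and all 25 ranked fallen genes had the same sign, and 25 and 24 of them passed there too, the exception being Hba-a2 (−0.74 in control hearts). The difference of the MI effect between genotypes passed an adjusted p of 0.05 in edgeR for 0 of 14779 genes (0%), with 1226 at an unadjusted p under 0.05, 58 calls by DESeq2's Wald test and 1 call in edgeR without M149. The smallest adjusted p was 0.383. It belonged among others to Igfbp5, a binding protein of insulin-like growth factors, which went from 50.3, 43.2 and 47.3 CPM to 235, 151 and 162 CPM in the Vegfc-deficient hearts (log2 fold change 1.96, SE 0.19) and had 0.24 (SE 0.20) in control hearts. Lrrc27, a leucine-rich repeat protein, had −2.36 against −0.76, Gfer, a sulfhydryl oxidase of mitochondria, −1.26 against −0.23, and Ints4, a subunit of the Integrator complex, −0.11 against −0.97. Some group medians stood apart without a test of that difference. T cell markers had 0.55 against 3.59 in control hearts, natural killer cell markers 1.22 against 3.54 and neutrophil markers 1.06 against 2.79. The T cell markers summed to at most 44.7 CPM in any Vegfc-deficient heart. Dendritic cell markers with MHC class II genes had 0.56 against 2.04, chemokines 1.08 against 2.27 and interferon-stimulated genes 0.60 against 2.00. B and plasma cell markers lay closer (0.90 against 1.24), as did macrophage markers. Inflammatory cytokines (2.81 against 2.21) and lipid-associated macrophage markers (0.57 against 0.52) went the other way. Red blood cell genes had −3.02 against −0.74 and ribosomal proteins −0.78 against 0.08. Cardiomyocyte markers had −2.43 against −3.03 and sarcomere and Z-disc genes −2.01 against −2.63. Medians of the matrix groups lay closer, at 3.64 against 3.82 for collagens and 3.58 against 3.83 for activated fibroblasts. Single matrix genes could differ more, as Cthrc1 did with 5.22 against 8.23. Of the 25 ranked risen genes 7, and of the 25 ranked fallen genes 1, were among the 1226 genes with an unadjusted p under 0.05 for the difference in edgeR. The naive control group had 2 libraries, which limits what a difference between genotypes could reach.

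**Figure D5:**
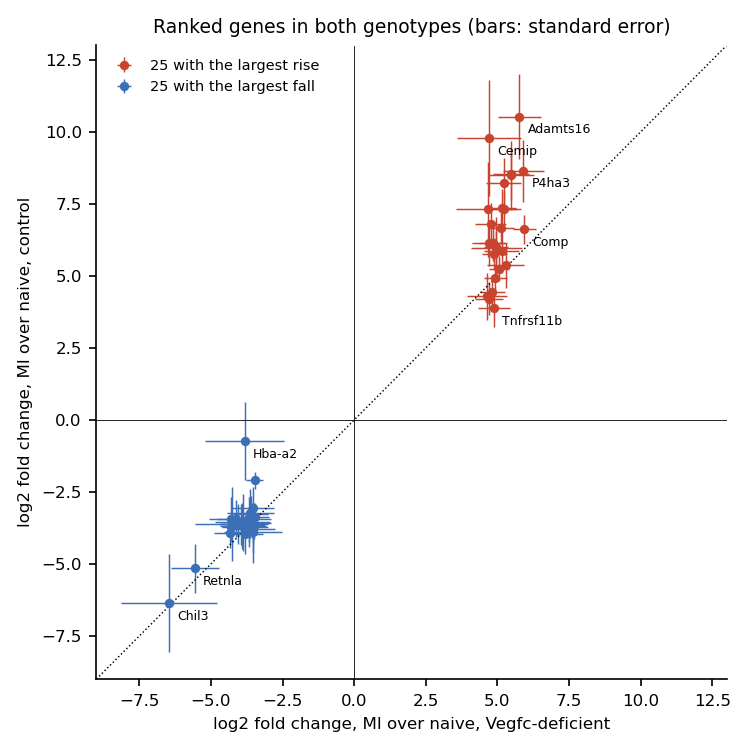
Log2 fold change from naive to MI in Vegfc-deficient hearts (horizontal axis, 3 naive and 3 MI mice) against control hearts (vertical axis, 2 naive and 3 MI mice) for the 50 ranked genes, with SEs as bars and a dotted line of equality. All 50 genes lie in the quadrants of equal sign, and 21 of the 25 risen and 7 of the 25 fallen genes had the larger change in control hearts. The control value of Adamts16 rests on naive libraries with 0 counts and gives no size. Other risen genes also had few counts in the naive control hearts, among them Cemip (0.0906 and 0.0892 CPM), P4ha3 (0.0906 and 0.357 CPM), Scg2 (0.181 and 0.268 CPM) and Acan (0.272 and 0.268 CPM). The sizes of their control changes, and so the count of 21, are uncertain.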

How the data were processed

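Gene counts of 11 left ventricular libraries were deposited. Per the labels and the study's methods, the authors made stranded poly(A) libraries from 1 mouse each, trimmed reads with cutadapt 1.13, aligned them to mm10 with STAR, counted reads per gene with HTSeq 0.6.1p1 and tested with DESeq2 1.14.1. The deposited counts are raw whole numbers. Here 24991 of 25006 identifiers were matched to GENCODE M21 (mm10). In edgeR 4.0.16 (R 4.3.3) the 11 libraries entered 1 quasi-likelihood fit by group with TMM factors and filterByExpr, and Benjamini-Hochberg adjusted p-values over all 14779 genes tested were read at 0.05. All 11 libraries share 1 estimate of the spread, and p-values measure the spread between mice. The SE of a log2 fold change is its size over the square root of F. CPM values are TMM-scaled, and a count of 3 was worth 0.244 to 0.363 CPM in the naive and 0.124 to 0.176 CPM in the MI libraries. Within groups log2 CPM correlated across genes with r from 0.952 to 0.981, and no 2 libraries were alike within sampling noise. Alternatives were DESeq2 1.42.0, its size factors, library size alone, other filters on low counts, the 6 libraries alone, leaving out each library and a threshold of 0.01.

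The named genes were taken from the 25 autosomal protein-coding genes highest and the 25 lowest by log2 fold change among 6296 with non-overlapping groups, an adjusted p under 0.05 and at least 10 CPM in the higher group, the 10 largest gains and losses in CPM per kilobase, the 4 largest changes in each of 56 gene lists with other list members given as values, the 10 genes most spread among MI hearts, the 5 with the smallest p for a genotype difference, and Vegfc, Lyz2 and sex-linked genes. Not every gene or list of this pool is reported in the text. The members and the 56 lists (899 genes) were chosen with earlier results of these data known. Promoters came from RefSeq (GRCm38.p6), where 11581 of 14779 genes had a window.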

Additional observations from a re-analysis of the deposited data

Results flagged for a closer look

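Ifi27l2a, an interferon-inducible gene, was singled out because its MI effect had opposite signs in the 2 genotypes. In Vegfc-deficient hearts it was at 308, 384 and 249 CPM in the naive and 136, 167 and 171 CPM in the MI hearts (log2 fold change −0.987, SE 0.201). In control hearts it was at 158 and 213 CPM in the naive and 366, 283 and 333 CPM in the MI hearts (log2 fold change 0.818, SE 0.229). Every MI heart lay below every naive heart in the first case and above in the second, and the test of the difference itself (−1.80) did not pass in edgeR over all genes (adjusted p = 0.383).

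Atp5g2, an ATP synthase subunit gene counted at a low level, was singled out for the same reason. It was at 0.977, 1.33 and 1.18 CPM in the naive and 0.823, 0.663 and 0.755 CPM in the MI hearts that lacked myeloid Vegfc (log2 fold change −0.628, SE 0.335). Control hearts had 0.453 and 0.624 CPM when naive and 0.981 to 1.25 CPM after MI (log2 fold change 1.04, SE 0.400). The test of the difference (−1.67) did not pass in edgeR over all genes (adjusted p = 0.543).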

How the results depend on the processing

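The number of genes passing between MI and naive hearts was 6909 to 8446 when 1 library was left out, against 8520 with all, and those at least 2-fold changed numbered 4161 to 5248. At an adjusted p of 0.01 the numbers were 6098 and 4099, DESeq2 passed 8721 genes, and library size alone 9880 with 75.5% higher. Of the 50 ranked genes 47 to 50 passed in each alternative and none changed sign. The genotype difference passed for 58 genes in DESeq2 and for 0 to 1 when 1 library was left out. Signs reversed for Rpl29 (0.23 with library size alone, and −0.99 to 0.64 when 1 library was left out, with 0.64 without M149 and 0.32 without M35), and over the same fits for Il1a (−2.05 without M900, up to 6.05), Lyz2 (−3.91 without M35 to 1.75 without M149), Ngp (−0.72 without M900, up to 3.27), Gpnmb (−1.20 to 2.69 without M149), Ccl2 (−0.23 without M900, up to 0.62), Dcn (−0.014 without M35, up to 0.19) and Myh7 (−0.78 without M35, up to 0.37, and −0.019 with DESeq2 or its size factors), and with library size alone for Ints4 (0.39) and Vegfc (0.24). The cause of these changes was not tested, apart from the added shift of 0.50 that library size alone gave all genes. No paired analysis was possible because the groups share no replicate numbers. With 3 mice against 3 an exact permutation test cannot give a p below 0.10, so calls rest on the fit across genes.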

Other observations

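Genes that varied most among the 3 MI hearts are given as values, in the order M35, M913 and M900, with no test. The cytokine Il1a was at 1.18, 0.331 and 86.0 CPM, and the chemokines Cxcl3 and Cxcl2, which attract neutrophils, were at 0.235, 0.331 and 40.7 CPM and 1.35, 0.911 and 41.2 CPM, so that M900 alone was high in each. Alox15, a lipoxygenase of eosinophils and some macrophages, was at 51.9, 0.787 and 1.59 CPM with M35 alone high, and its log2 fold change of 3.95 was 0.05 without that heart. Npy, a neuropeptide of sympathetic nerves, was at 0.411, 29.3 and 15.5 CPM, and Serpinb2, an inhibitor of plasminogen activators, at 19.6, 0.456 and 25.7 CPM. Gm8909, a gene of the MHC class I region, was at 0, 17.1 and 13.9 CPM. Rpl29, a ribosomal protein, was at 0.977, 26.7 and 48.2 CPM in the naive hearts M34, M150 and M149 and at 0.176, 36.6 and 26.2 CPM in the MI hearts. Tma7, a small translation-associated protein, was at 2.60, 34.1 and 52.2 CPM and 0.705, 25.7 and 22.1 CPM. Both genes lie on chromosome 9 and both were low in M34 and M35, 1 heart of each group.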
